A study of Mus musculus with 12 samples.

Results

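The comparison described here is that of skin after 12 weeks of topical baricitinib with skin of the same mice at the start of treatment. Its members were the 3 arrays that the labels title as baricitinib week 12 and the 3 titled baricitinib week 0, of 12 arrays in all, and the labels number the animals so that each week 12 array has a week 0 array of the same mouse. All mice were C3H/HeJ graft recipients, in which a graft of alopecic skin from a diseased donor of the same strain brings on alopecia areata. They were then aged to near complete hair loss, and treatment began after disease was established. The baricitinib mice received the drug and the 3 vehicle mice received the carrier, each applied to the skin every day. Week 0 was therefore diseased skin, no skin of mice without a graft was compared, and the age of each animal at biopsy, the sex and the place of the biopsy relative to the graft are not given in the sources used here. The arrays were Affymetrix whole-genome arrays for the mouse, on which a probe set is a group of short probes for 1 transcript, and the values were log2 intensities normalized by RMA. Describing all 45037 probe sets other than the controls, which stand for 18193 genes with 1 symbol, answers which transcripts moved over the treatment.

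Alopecia areata is an attack of T cells on the growing hair follicle. Interferon-gamma from cytotoxic lymphocytes signals through JAK1 and JAK2 in skin cells, which then make chemokines that draw in more lymphocytes and large GTPases and antiviral proteins that serve as a readout of the signal. Baricitinib blocks JAK1 and JAK2. The hair follicle cycles through growth, when matrix cells divide and build the shaft and the inner root sheath, and rest, when the stem cells of the bulge lie quiet and the shaft-making cells are gone.

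The labelled tissue was borne out by its markers. On the 6 arrays the keratinocyte keratin Krt5 read between 12.67 and 13.03, and the collagen Col1a1 between 12.01 and 12.65, and neither passed the test between the times (adjusted p = 0.996 and 0.927). Skeletal muscle was in the biopsies too, since Acta1, the muscle actin, read between 11.58 and 13.02. The B cell gene Cd79a was at or below 4.98 on the 6 arrays and the red cell gene Hba-a1 at or below 3.78, both under the median of all values, 5.24. Other markers of these cells exceeded it on some arrays. The B cell gene Ms4a1 read 6.95 in mouse 2 at week 0, and the red cell gene Alas2 read 6.08 in mouse 3 at week 12. In a piece of skin, fewer cells of a type and less RNA per cell cannot be told apart. The arrays were not alike in quality. The 3' to 5' index, the mean log2 excess of the 3' over the 5' control probe sets of Gapdh and beta-actin, grows as RNA is broken. It was 3.19, 4.10 and 2.55 in mice 1, 2 and 3 at week 0 and 3.45, 1.26 and 1.31 at week 12, while the vehicle arrays ranged from 1.23 to 4.08. The week 12 arrays of mice 2 and 3 thus stood below all week 0 arrays, and the part of the index in the results was examined only by a fit that includes it. The lowest mean correlations with the other arrays were 0.941, for mouse 2 at week 0, and 0.946, for mouse 1 at week 12. The study's methods say that 1 baricitinib array of each time failed quality control, and do not say which, and whether they are these 2 is not known. The methods also list 1 failed control sample at baseline without naming its experiment, so whether it is a vehicle array used here is not known. Results are also given without the 2 arrays of lowest correlation, a choice made after seeing the data.

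The test was limma with 1 mean for each of the 4 groups, and p-values were adjusted by Benjamini-Hochberg over all 45037 probe sets. In it 394 probe sets were called lower at week 12 (0.875% of those tested) and 163 were called higher (0.362%) at an adjusted p under 0.05. The calls named 326 and 138 genes, with no gene in both directions. Several probe sets measured 186 of the genes called lower, and in 24 of these at least 2 were called. For the genes called higher the numbers were 76 and 6. The falls were larger than the rises. The median log2 change was -2.04 among the probe sets called lower and 1.56 among those called higher, against 0.00 over all tested, and 84 fell by more than 3 on the log2 scale while 8 rose by as much. All 557 moved the same way in all 3 mice and had no overlap between the times, as did 7.91% of all probe sets downward and 7.97% upward. The 3 mice were unequal: the median change of the probe sets called lower was -1.83, -1.92 and -2.29 in mice 1, 2 and 3, and that of the probe sets called higher was 1.25, 1.64 and 1.84. At week 12, 163 of the 394 had a mean under the median of all values, where signal is low, so that folds there describe the RMA values and not transcript numbers.

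With the mouse as a block, 130 probe sets were called lower (0.289%) and 28 higher (0.0622%), among them 112 and 23 of the above. Without the 2 arrays of lowest correlation, the numbers were 512 (1.14%) lower and 348 (0.773%), with 271 and 109 of the above. With that index held in the fit they were 985 and 778, and 388 and 159 of the above were still called. Leaving out 1 baricitinib array gave 158 lower and 48 higher (mouse 1 at week 0), 247 and 83 (mouse 2 at week 0), 60 and 10 (mouse 3 at week 0), 749 and 615 (mouse 1 at week 12), 106 and 15 (mouse 2 at week 12) or 119 and 21 (mouse 3 at week 12). Vehicle arrays count here because they share the estimate of the spread. Without vehicle mouse 2 at week 0 or week 12, 257 or 249 were called lower and 76 or 78 higher. Without the vehicle week 12 array of mouse 1 or mouse 3, 96 or 106 were called higher. Of the 86 genes called and named here by a fixed rule, 29 were called in all 12 fits that left out 1 array. The other 57 all lost the call without mouse 3 at week 0, 47 without mouse 2 at week 12, 45 without mouse 3 at week 12, 40 and 33 without mouse 1 and mouse 2 at week 0, and 4 without mouse 1 at week 12. How many of the 12 fits lost the call is given below for each named gene where any did.

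**Figure D1:**
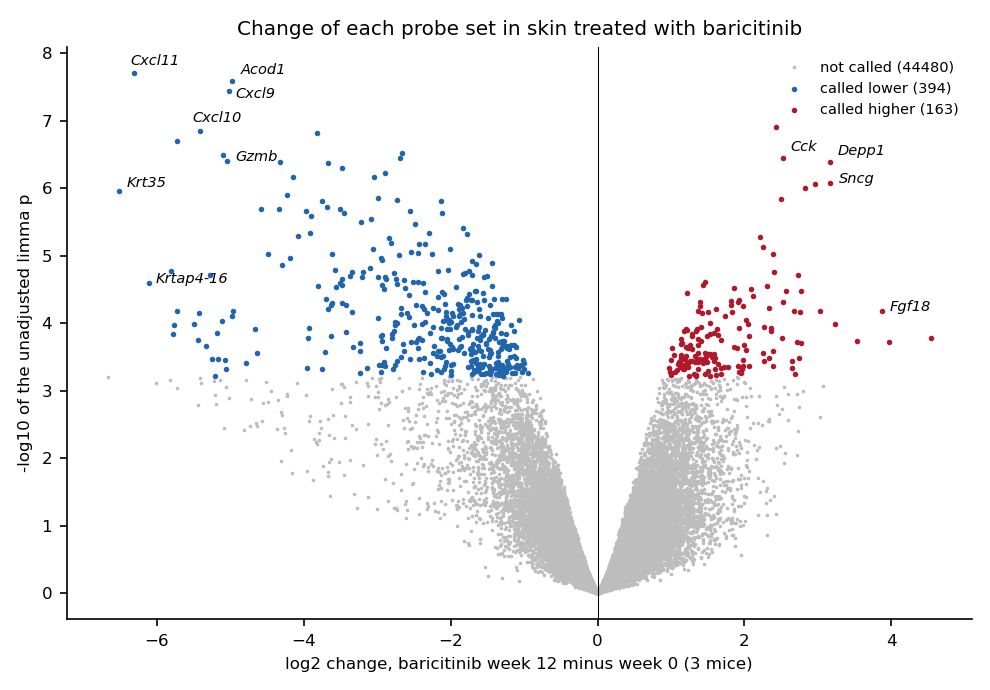
Each point is 1 of 45037 probe sets, with the log2 change from week 0 to week 12 of baricitinib on the x axis and minus log10 of the unadjusted limma p on the y axis. The 394 probe sets called lower (blue) reach a log2 change of -6.51 and the 163 called higher (red) reach 4.54.

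Chemokines and cytotoxic genes led the falls together with keratins of the hair follicle. Of the 15 genes with the largest falls among those also called with the mouse as a block, Cxcl9, Cxcl10 and Cxcl11 encode the chemokines that draw CXCR3-bearing T cells, Gzmb encodes granzyme B, Cd8a the co-receptor of cytotoxic T cells, and Acod1 the enzyme that makes itaconate in activated macrophages. Krt35, Krt73, Krt28 and Krtap4-16 build the hair shaft or its inner root sheath. Mouse 3 had the largest fall in 11 of them. Without the 2 arrays of lowest correlation, 14 of the 15 were still called.

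Cxcl11 read 10.21, 10.53 and 11.11 at week 0 and 4.08, 4.42 and 4.42 at week 12, a log2 change of -6.31 ± 0.47 (SE, n = 3 mice at each time) with an adjusted p of 0.000546. The times were separated by far more than the spread within either, and the 3 mice fell nearly alike. Cxcl10 read 11.20, 10.90 and 11.45 at week 0 and 6.09, 6.07 and 5.16 at week 12. The change of Cxcl10 was -5.41 ± 0.48 (adjusted p = 0.00114). Cxcl9 read 11.71, 12.04 and 12.19 at week 0 and 7.37, 7.43 and 6.06 at week 12. The change of Cxcl9 was -5.03 ± 0.39 (adjusted p = 0.000546). All 3 chemokines started bright and ended far lower in every mouse, with mouse 3 ending lowest for Cxcl9 and Cxcl10. Gzmb read 9.24, 9.03 and 9.12 at week 0 and 4.003, 5.11 and 3.13 at week 12. The change of Gzmb was -5.05 ± 0.49 (adjusted p = 0.00128). Acod1 read 7.24, 7.59 and 7.66 at week 0 and 2.10, 3.23 and 2.26 at week 12. The change of Acod1 was -4.97 ± 0.38 (adjusted p = 0.000546). Neither gene overlapped between the times. Krt35, a keratin of the hair shaft cuticle and cortex, read 10.58, 8.83 and 10.75 at week 0 and 3.39, 4.44 and 2.79 at week 12. The change of Krt35 was -6.51 ± 0.70 (adjusted p = 0.0022). Mouse 2 was lowest of the 3 at week 0 and highest at week 12. Krt73 and Krt28, keratins of the inner root sheath, changed by -5.73 ± 0.53 and -5.28 ± 0.76 (adjusted p = 0.00128 and 0.0105, the latter lost in 1 of the 12 fits), and Krtap4-16, a protein that links shaft keratins, by -6.11 ± 0.91 (adjusted p = 0.0114, lost in 1).

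Among the other 5 of the 15, Adamts20 and Adamts18, secreted metalloproteases, changed by -5.10 ± 0.49 and -4.23 ± 0.46 (adjusted p = 0.00128 and 0.00236). AU018091 and Gm12446, of no role given here, changed by -4.48 ± 0.60 and -4.33 ± 0.50 (adjusted p = 0.00717 and 0.0028). Aldh1a3, which makes retinoic acid, changed by -4.63 ± 0.90 (adjusted p = 0.0336, lost in 6 of the 12 fits, and 0.0813 without the 2 arrays). Aldh1a3 read 8.15, 8.75 and 10.36 at week 0 and 2.59, 4.55 and 6.22 at week 12. Its spread within each time was wide, with mouse 3 above mouse 1 at both, whereas the fall within each mouse was similar, -5.57, -4.19 and -4.14.

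**Figure D2:**
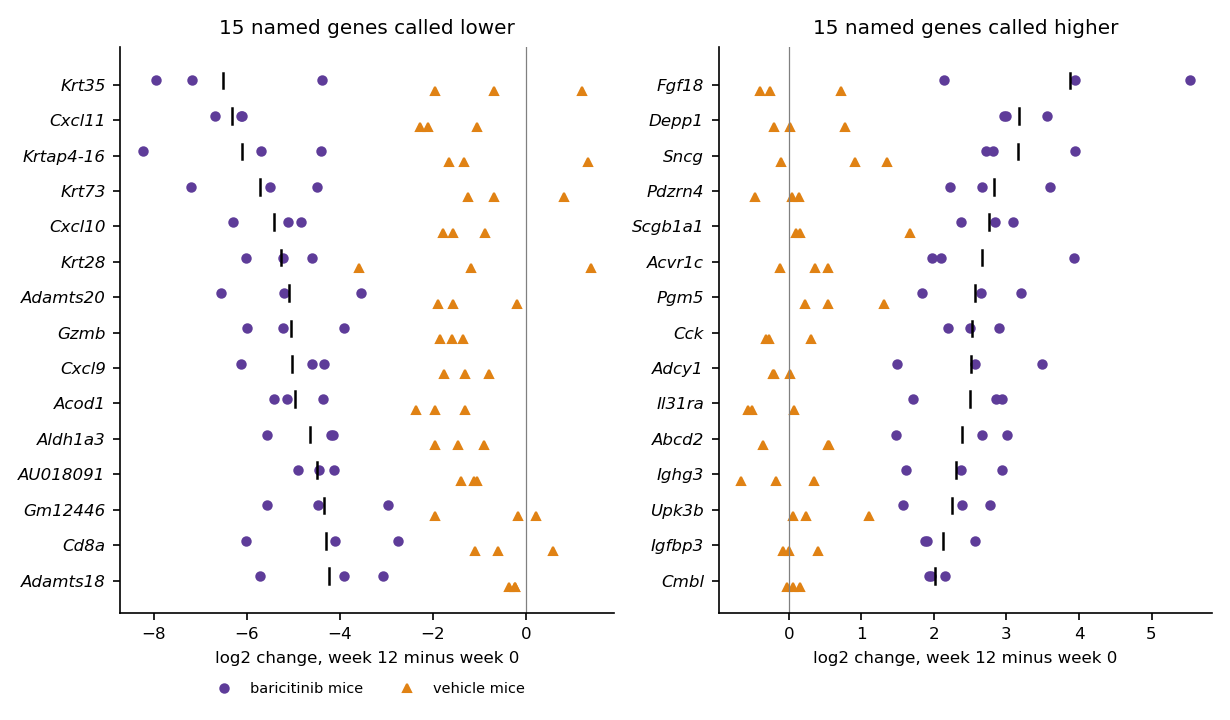
Log2 change from week 0 to week 12 for the 15 named genes in each direction, with circles for the 3 baricitinib mice, triangles for the 3 vehicle mice and a bar at the mean of the baricitinib mice. In every gene shown the 3 circles lie on 1 side of the 3 triangles, as in 6.14% of all probe sets downward and 5.41% upward, and the genes were chosen for large changes in the circles.

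The 15 genes with the largest rises, chosen in the same way, held secreted factors, receptors and enzymes, and 11 of them were still called without the 2 arrays. Fgf18, a growth factor made by resting bulge cells that holds follicles in rest, read 4.198, 4.86 and 3.84 at week 0 and 6.34, 8.81 and 9.36 at week 12, a change of 3.87 ± 0.64 (SE, n = 3 mice at each time) with an adjusted p of 0.0176. Every week 12 array exceeded every week 0 array, though mouse 1 rose least, and 4 of the 12 fits lost the call. Depp1, a gene switched on by FOXO factors, read 5.24, 5.05 and 5.26 at week 0 and 8.195, 8.61 and 8.26 at week 12. The change of Depp1 was 3.17 ± 0.31 (adjusted p = 0.00128). Sncg, gamma-synuclein, which adipocytes express, read 5.66, 5.69 and 5.44 at week 0 and 8.38, 8.51 and 9.38 at week 12. The change of Sncg was 3.16 ± 0.33 (adjusted p = 0.00184). Neither overlapped between the times, and mouse 3 rose most in Sncg. Cck, which encodes the peptide cholecystokinin, changed by 2.53 ± 0.25 (adjusted p = 0.00128) and Il31ra, a receptor chain for the itch cytokine IL-31, by 2.50 ± 0.28 (adjusted p = 0.00244). Il31ra read 4.35, 4.18 and 4.01 at week 0 and 6.06, 7.12 and 6.86 at week 12, so that the receptor of a cytokine that itself signals through JAK kinases was higher at week 12 on every array. Igfbp3, a binding protein of insulin-like growth factors, changed by 2.12 ± 0.33 (adjusted p = 0.0145, lost in 4 of the 12 fits).

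Acvr1c, a receptor of the activin family expressed in fat, changed by 2.67 ± 0.44 (adjusted p = 0.0176, lost in 4 of the 12 fits). Abcd2, a peroxisomal fatty acid transporter, changed by 2.39 ± 0.46 (0.0318, lost in 6). Scgb1a1, a secretoglobin, changed by 2.77 ± 0.52 (0.0286, lost in 5), Pgm5, a protein of muscle adhesions, by 2.56 ± 0.39 (0.0129, lost in 2) and Cmbl, a hydrolase, by 2.02 ± 0.39 (0.0318, lost in 7). Pdzrn4, of no role given here, Adcy1, an adenylyl cyclase, Upk3b, a uroplakin, and Ighg3 changed by 2.83 ± 0.30, 2.51 ± 0.46, 2.25 ± 0.29 and 2.31 ± 0.35, with adjusted p-values of 0.00206, 0.0262, 0.00639 and 0.012, of which Adcy1 was lost in 4 and Ighg3 in 3 of the 12 fits. Scgb1a1, Adcy1, Abcd2 and Cmbl had adjusted p-values of 0.0729, 0.0773, 0.0895 and 0.0896 without the 2 arrays. Ighg3 encodes an immunoglobulin constant region and read 4.94, 3.88 and 4.801 at week 0 and 6.55, 6.82 and 7.18 at week 12, while the B cell gene Cd79a stayed dim.

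Interferon-gamma and the GTPases it induces fell, and the MHC genes it also induces did not pass the test, as given further on. Ifng itself read 8.19, 7.16 and 8.27 at week 0 and 3.77, 4.98 and 4.35 at week 12, a change of -3.51 ± 0.40 (SE, n = 3 mice at each time) with an adjusted p of 0.0028, and was lower at week 12 in every mouse. The GBP and IRG GTPases, which attack the vacuoles of intracellular microbes and are induced by interferon-gamma, were called lower in 10 of 10 measured members, against 0.875% of all probe sets and 2.39% of genes when each had 1 probe set, and 7 of the 10 were also called with the mouse as a block. Their median change was -2.68, and all 10 members fell furthest in mouse 3. Gbp8 read 9.003, 10.13 and 9.59 at week 0 and 5.73, 6.05 and 4.53 at week 12. The change of Gbp8 was -4.14 ± 0.43 (adjusted p = 0.00165). Igtp read 12.59, 12.27 and 12.70 at week 0 and 9.65, 10.53 and 8.86 at week 12. The change of Igtp was -2.84 ± 0.36 (adjusted p = 0.00511). Neither overlapped between the times. Iigp1 and Gbp3 changed by -3.42 ± 0.55 and -2.93 ± 0.40 (adjusted p = 0.0163 and 0.00815, lost in 3 and 1 of the 12 fits). Gbp2, Irgm2 and Gbp7 were not called with the mouse as a block, with adjusted p-values of 0.0921, 0.071 and 0.0569.

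The antiviral genes, which type I interferon induces more widely, were called lower in 12 of 31 measured members, 7 of them also with the mouse as a block, with a median change of -1.70, and 0 were called higher. All 31 had a change below 0, from -3.91 to -0.005. Oasl2, a member of the 2'-5' oligoadenylate synthetase family, read 10.79, 10.77 and 11.54 at week 0 and 8.204, 7.21 and 5.94 at week 12. The change of Oasl2 was -3.91 ± 0.49 (adjusted p = 0.00478). Ifit1, which binds viral RNA, read 10.92, 10.47 and 11.38 at week 0 and 8.42, 7.31 and 6.20 at week 12. The change of Ifit1 was -3.61 ± 0.48 (adjusted p = 0.00717). In both the week 12 levels ran from mouse 1, the highest, to mouse 3, the lowest. Mx1, a dynamin-like antiviral GTPase, and Herc6, a ligase of the ubiquitin-like protein ISG15, changed by -3.51 ± 0.52 and -2.98 ± 0.33 (adjusted p = 0.0114 and 0.00244, Mx1 lost in 2 of the 12 fits). The same list had a median change of -0.58 in the vehicle mice, whereas that of the GBP and IRG GTPases was -0.30.

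Promoters of some of these genes are shown because interferon acts through short DNA elements, and the 5 printed were chosen for holding a match. Promoter sequences (RefSeq, GRCm38.p6, from 250 bases before to 50 after the start) were found for 243 of the 326 genes called lower and 107 of the 138 called higher. They were searched for the core of the interferon-stimulated response element, GAAANNGAA or TTCNNTTTC on the other strand, and for the gamma-activated site, TTCNNNGAA, which reads alike on both strands, with overlaps allowed. The response element core was in 43 of the 243 (17.7%) and 13 of the 107 (12.15%), against 8.705% of the 14452 genes with a probe set and a promoter. It was in 6 of 7 GBP and IRG genes with a promoter and in 12 of 21 of the antiviral genes. Among other lists that fell, it was in 4 of 23 keratin-associated proteins, 1 of 7 hair shaft keratins and 1 of 27 cell cycle genes. The gamma-activated site was in 31 of the 243 (12.76%), 13 of the 107 (12.15%) and 8.573% of the 14452. The promoters of Oasl2 and Herc6 and a second promoter of Gbp3 held neither. A match is a string of letters and not a shown binding site. In the promoters below, printed 5' to 3' along the gene, capitals mark the matches, which begin at -175 in Cxcl9 (chr5:92328030-92328329, minus strand), -213 in Cxcl10 (chr5:92348840-92349139, minus strand), -44 for the first of 2 in Gbp3 (chr3:142559794-142560093, plus strand), and -34 in Igtp (chr11:58199306-58199605, plus strand), where a gamma-activated site also lies at -45. Ifit1 (chr19:34640639-34640938, plus strand) has 3, the first at -109.
Cxcl9: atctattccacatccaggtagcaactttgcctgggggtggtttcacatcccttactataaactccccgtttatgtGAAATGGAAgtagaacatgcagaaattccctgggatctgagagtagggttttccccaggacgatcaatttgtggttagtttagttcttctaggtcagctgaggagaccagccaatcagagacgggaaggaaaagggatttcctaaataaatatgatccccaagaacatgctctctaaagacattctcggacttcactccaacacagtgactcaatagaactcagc
Cxcl10: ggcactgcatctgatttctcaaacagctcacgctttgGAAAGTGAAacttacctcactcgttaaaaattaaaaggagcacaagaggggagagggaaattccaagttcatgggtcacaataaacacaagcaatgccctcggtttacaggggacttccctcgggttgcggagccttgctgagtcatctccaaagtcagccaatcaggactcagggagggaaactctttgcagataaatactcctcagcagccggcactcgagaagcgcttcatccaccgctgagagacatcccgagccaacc
Gbp3: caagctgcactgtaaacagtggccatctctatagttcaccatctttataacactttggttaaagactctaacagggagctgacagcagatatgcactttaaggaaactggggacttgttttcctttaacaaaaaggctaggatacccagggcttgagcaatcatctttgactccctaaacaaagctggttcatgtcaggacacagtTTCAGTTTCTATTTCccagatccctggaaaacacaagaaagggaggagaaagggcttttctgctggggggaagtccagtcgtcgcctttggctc
Igtp: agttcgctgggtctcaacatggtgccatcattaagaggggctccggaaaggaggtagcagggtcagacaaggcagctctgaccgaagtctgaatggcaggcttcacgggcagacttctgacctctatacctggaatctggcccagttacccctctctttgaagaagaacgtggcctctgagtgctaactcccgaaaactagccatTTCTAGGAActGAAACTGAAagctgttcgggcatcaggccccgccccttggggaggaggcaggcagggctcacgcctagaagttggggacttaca
Ifit1: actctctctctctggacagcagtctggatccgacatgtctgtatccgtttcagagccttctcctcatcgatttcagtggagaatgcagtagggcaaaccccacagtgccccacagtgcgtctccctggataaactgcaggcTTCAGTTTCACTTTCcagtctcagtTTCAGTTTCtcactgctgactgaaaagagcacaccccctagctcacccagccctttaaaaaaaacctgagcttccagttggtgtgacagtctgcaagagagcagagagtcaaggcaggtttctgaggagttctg

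Of 31 chemokine ligands measured, 7 were called lower and 0 higher, 5 of them also with the mouse as a block, and the median change of the list was -1.89. Besides the 3 ligands of CXCR3, Ccl1, which attracts CCR8-bearing T cells, read 7.87, 8.48 and 8.52 at week 0 and 4.86, 4.88 and 4.69 at week 12. The change of Ccl1 was -3.48 ± 0.35 (adjusted p = 0.0014) and the 3 week 12 values lay close together. Ccl3 and Ccl5, which draw T cells and monocytes, changed by -3.45 ± 0.40 and -3.21 ± 0.47 (adjusted p = 0.00288 and 0.0105), and Cxcl1, which draws neutrophils, by -2.43 ± 0.45 (adjusted p = 0.0262). Ccl5 and Cxcl1 were not called with the mouse as a block (adjusted p = 0.056 for each). Of 20 chemokine receptors 2 were called lower, against the same 0.875% of probe sets and 2.39% of genes. Every count of list members called lower below is to be read with these shares. Every count called higher is to be read with 0.362% of probe sets and 1.05% of genes. The 2 receptors called were Ccr2, the receptor of inflammatory monocytes, and Cxcr4, with changes of -2.99 ± 0.51 and -1.71 ± 0.27 (adjusted p = 0.0191 and 0.0152, 0.0808 and 0.0732 with the mouse as a block, each lost in 3 of the 12 fits). Cxcr3, the receptor of Cxcl9 to Cxcl11, was not called, at 7.61, 5.52 and 6.02 at week 0 and 6.36, 5.82 and 5.60 at week 12 (change -0.46 ± 0.46, adjusted p = 0.771).

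Among T cell genes, Cd8a parted from the genes of the CD3 complex, which all T cells carry. Cd8a read 9.80, 9.37 and 8.69 at week 0 and 3.79, 6.61 and 4.59 at week 12. The change of Cd8a was -4.29 ± 0.60 (adjusted p = 0.00912), and mouse 2 kept the highest week 12 value. A further probe set of Cd8a was called with a change of -4.19, while 3 dimmer ones were not called, with changes from -1.34 to -0.15. Cd3e read 9.90, 9.11 and 9.66 at week 0 and 9.27, 9.70 and 9.73 at week 12, a change of 0.01 ± 0.26 (adjusted p = 0.995), and the times overlapped fully. Cd3g, Cd3d and Cd247, the other CD3 chains measured, changed by 0.55 ± 0.52, -0.08 ± 0.49 and 1.01 ± 0.28 (adjusted p = 0.753, 0.971 and 0.123), and Cd247 was above its week 0 values in all 3 mice. Cd8b1, the partner chain of CD8, was dim throughout, between 3.00 and 4.44, and Cd4 stayed between 3.94 and 4.81. Of the 15 genes of this list 1 was called.

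Cytotoxic genes behaved unequally. In the list of granule proteins and death ligands, 3 of 14 were called lower. Gzma, granzyme A, read 9.66, 8.71 and 10.40 at week 0 and 3.55, 6.48 and 2.47 at week 12. The change of Gzma was -5.42 ± 0.90 (adjusted p = 0.0176, 0.063 with the mouse as a block, lost in 3 of the 12 fits), and mouse 2 again kept the highest value at week 12. Tnfsf10, which encodes TRAIL, changed by -1.35 ± 0.28 (adjusted p = 0.0427, 0.124 with the block, lost in 10). Prf1, which encodes perforin, was not called, at 5.68, 5.38 and 5.88 at week 0 and 5.56, 6.70 and 6.999 at week 12 (change 0.77 ± 0.37, adjusted p = 0.433). Fasl missed the threshold with a change of -2.90 ± 0.71 (adjusted p = 0.0798), although its week 12 values, from 2.88 to 3.22, lay below all week 0 values, from 4.89 to 6.67. Among 12 killer cell genes Klrc1, which encodes NKG2A, was called (-2.54 ± 0.34, adjusted p = 0.00717), and Klrk1, which encodes NKG2D, was not (-0.77 ± 0.42, adjusted p = 0.516). Of 17 costimulatory and checkpoint genes, Tnfrsf9, which encodes 4-1BB, and Icos were called lower, with changes of -2.17 ± 0.42 and -2.11 ± 0.36 (adjusted p = 0.0322 and 0.0203). Tnfrsf9 had an adjusted p of 0.0639 with the block, and the calls were lost in 6 and 4 of the 12 fits.

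The kinases that baricitinib binds showed no change that passed the test. Jak1 read 10.43, 10.08 and 10.32 at week 0 and 10.34, 10.31 and 9.91 at week 12. The change of Jak1 was -0.09 ± 0.22 (adjusted p = 0.924). Jak2 read 10.88, 11.10 and 10.82 at week 0 and 10.73, 10.55 and 10.35 at week 12 (change -0.39 ± 0.20, adjusted p = 0.479). Jak3 and Tyk2 changed by 0.32 ± 0.42 and 0.03 ± 0.26. Of 10 measured genes for JAK kinases and STAT factors, Stat4, which acts downstream of IL-12 in T cells, was called, with a change of -2.25 ± 0.39 (adjusted p = 0.0223, 0.0584 with the mouse as a block, lost in 4 of the 12 fits). Of 16 genes for SOCS proteins and other brakes on the pathway 0 were called, with a median change of 0.01, and of 12 genes for the common gamma chain cytokines and their receptors 0 were called, with a median of -0.14. The MHC class I and immunoproteasome list (14 genes, 0 called, median -0.30) and the MHC class II list (11 genes, 0 called, median 0.06) showed none that passed. With the index of 3' over 5' signal held in the fit, 3 class I genes were called lower (median -0.60). Without the 2 arrays of lowest correlation 1 was, and class II had 0 in both fits. H2-K1, a class I heavy chain, read 10.48, 10.82 and 10.65 at week 0 and 10.06, 10.51 and 10.64 at week 12. The change of H2-K1 was -0.25 ± 0.24 (adjusted p = 0.763), and Cd74, the class II invariant chain, read 12.76, 12.51 and 12.96 at week 0 and 12.39, 12.99 and 13.04 at week 12 (change 0.06 ± 0.30, adjusted p = 0.966). In both the times overlapped.

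Of 21 inflammatory cytokines 2 were called lower and 1 higher. Osm, oncostatin M, changed by -1.49 ± 0.29 (adjusted p = 0.031, 0.0779 with the block, lost in 6 of the 12 fits), beside Ifng. Il33, an alarm cytokine stored in the nuclei of skin cells, changed by 1.24 ± 0.27 (adjusted p = 0.0495, 0.0956 with the block, lost in 9). Il1b and Tnf had changes of -1.56 ± 0.38 and -0.89 ± 0.30 that did not pass (adjusted p = 0.0819 and 0.21). Among 21 macrophage and monocyte genes, the Fc receptor Fcgr4 was called (-2.97 ± 0.61, adjusted p = 0.0409, 0.0769 with the block, lost in 9), and 19 of the 21 had a change below 0. Their median of -0.76 was -0.08 in mouse 1 and -1.22 and -1.23 in mice 2 and 3. Among 13 leukocyte adhesion genes, the endothelial Vcam1 and the integrin Itgb2 were called lower (-1.80 ± 0.32 and -1.62 ± 0.33, adjusted p = 0.0228 and 0.042, 0.0835 and 0.122 with the block, lost in 5 and 10). The decoy receptor Il1r2, in the list of 13 neutrophil genes, was called higher (1.36 ± 0.27, adjusted p = 0.0337, 0.103 with the block, lost in 9). Langerhans and dendritic cell genes (13), B and plasma cell genes (13) and mast cell genes (13) had 0 called. Cd207, langerin, read 7.91, 7.69 and 7.50 at week 0 and 8.33, 9.10 and 9.58 at week 12. The change of Cd207 was 1.30 ± 0.30 (adjusted p = 0.0629), with all week 12 values above all week 0 values, and the vehicle mice changed by 1.19.

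**Figure D3:**
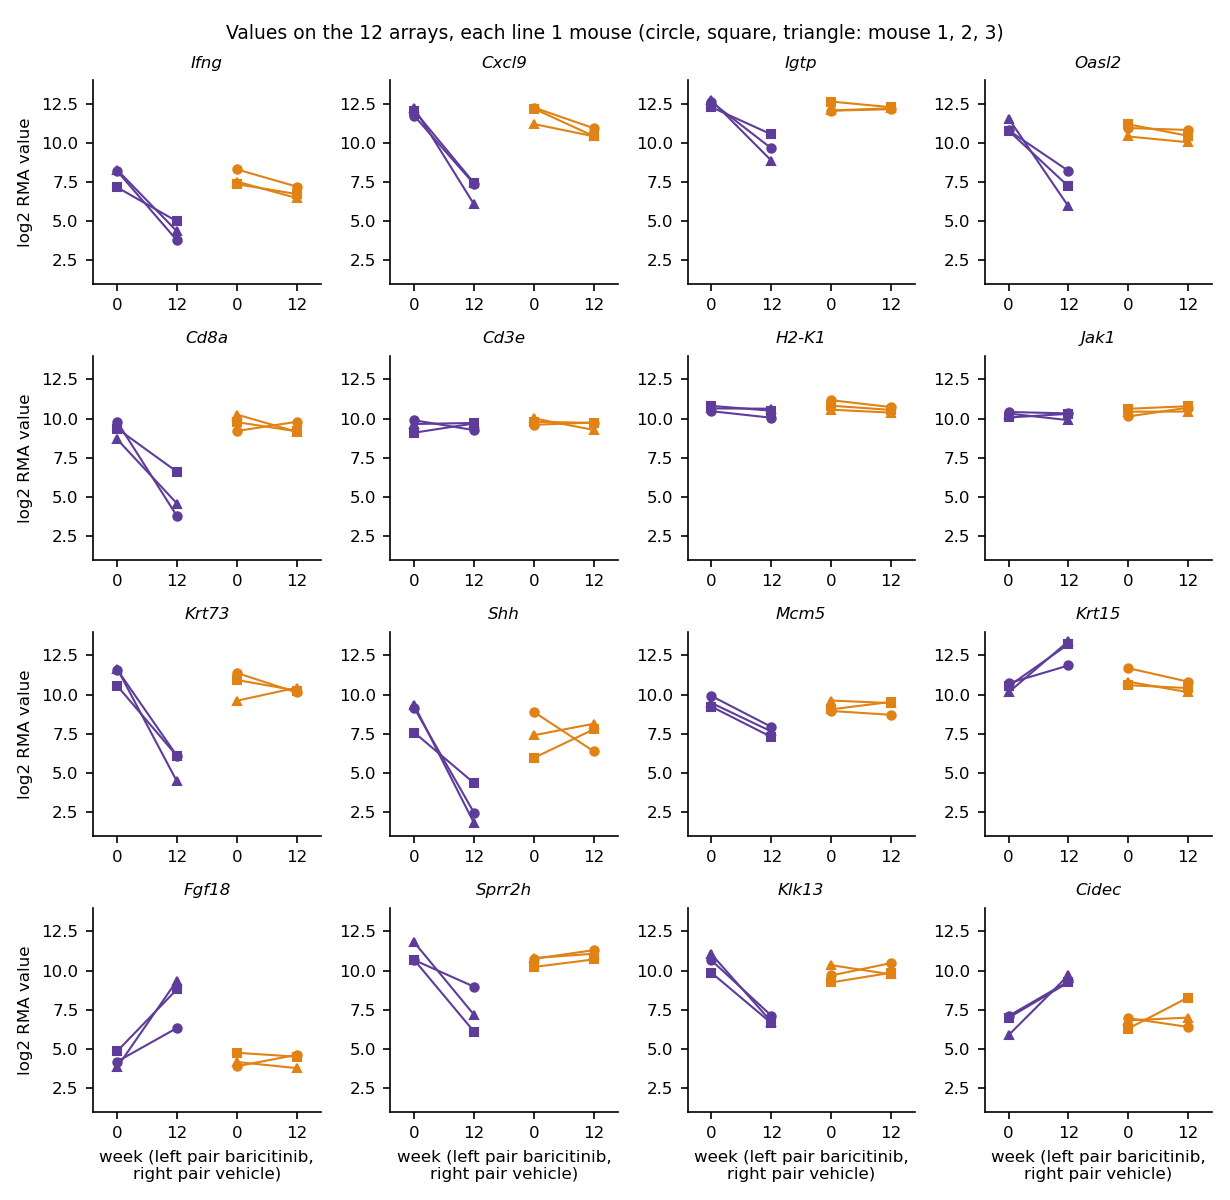
Log2 RMA values of 16 genes on all 12 arrays, with a line for each mouse from week 0 to week 12, the baricitinib mice in purple on the left and the vehicle mice in orange on the right of each panel. Cxcl9, Igtp, Cd8a, Krt73 and Shh drop in all 3 baricitinib mice, Krt15, Fgf18 and Cidec rise in all 3, and Cd3e, H2-K1 and Jak1 stay within the range of week 0 or next to it.

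Structural genes of the hair shaft and its sheath were among those with the largest falls. Of 12 hair shaft keratins 3 were called lower, with a median change of -4.34 over the 12. Of 25 keratin-associated proteins, which bind shaft keratins to each other, 6 were called (median -4.52), and of 17 genes of the inner root sheath and companion layer, the layers that mould the shaft, 7 were called (median -3.82). The mice were spread widely at week 12. The medians of the keratin-associated proteins were -2.86, -3.48 and -6.94 in mice 1, 2 and 3, and mouse 3 had the largest fall in 24 of the 25. In 24 of these 25 and in 10 of the 12 shaft keratins all week 12 values lay below all week 0 values, a pattern that 7.91% of all probe sets showed. With the mouse as a block, 1 of the 3 shaft keratins, 1 of the 6 keratin-associated proteins and 2 of the 7 sheath genes were still called. Without the 2 arrays of lowest correlation 1, 4 and 8 of the lists were called, and with the index of 3' over 5' signal held in the fit 8, 18 and 12. These proteins form families of near-identical genes, whose probe sets may share signal.

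Krt31, a keratin of the hair cortex, read 10.53, 10.50 and 11.86 at week 0 and 6.19, 6.03 and 5.18 at week 12. The change of Krt31 was -5.16 ± 1.03 (adjusted p = 0.0372, 0.0693 with the mouse as a block, lost in 9 of the 12 fits). Krt82, of the shaft cuticle, changed by -5.11 ± 0.88 (adjusted p = 0.0203, 0.0644 with the block, lost in 4). Krtap13-1, Krtap4-2 and Krtap4-7 changed by -5.78 ± 1.04, -5.77 ± 1.01 and -5.43 ± 1.00 (adjusted p = 0.0244, 0.0216 and 0.027), and with the block their adjusted p-values were 0.0523, 0.0602 and 0.0666, with the call lost in 5, 4 and 5 of the 12 fits. The inner root sheath keratins Krt71 and Krt27 changed by -5.25 ± 1.05 and -4.98 ± 0.84 (adjusted p = 0.0374 and 0.0182, 0.0666 and 0.056 with the block, lost in 9 and 5). Krt27 read 12.72, 12.71 and 13.30 at week 0 and 9.58, 7.88 and 6.35 at week 12, which shows the order of the mice at week 12, with mouse 1 highest and mouse 3 lowest.

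Among the signals and cells that drive growth, a few genes were called, all lower. Shh, the ligand that matrix cells send during growth, read 9.14, 7.58 and 9.32 at week 0 and 2.45, 4.35 and 1.80 at week 12. The change of Shh was -5.81 ± 0.83 (adjusted p = 0.0102, 0.0602 with the mouse as a block, lost in 1 of the 12 fits). Mouse 2 was lowest at week 0 and highest at week 12, and a dimmer probe set of Shh did not pass (change -0.26, adjusted p = 0.743). It was the 1 of 12 hedgehog genes called, and its target Gli1 did not pass (-1.25 ± 0.56, adjusted p = 0.39). Among 20 matrix and Wnt genes, Msx2, a homeobox factor of the matrix, was called (-2.79 ± 0.50, adjusted p = 0.0248, 0.0843 with the block, lost in 4). Among 16 dermal papilla genes, Corin, a protease of the papilla of growing follicles, was called and read 7.34, 7.30 and 6.98 at week 0 and 4.44, 3.20 and 2.93 at week 12. The change of Corin was -3.68 ± 0.42 (adjusted p = 0.0028), with no overlap. All 33 cell cycle genes had a change below 0, with a median of -1.01, and 7 were called lower, 2 of them also with the block. Bub1, a kinase of the spindle checkpoint, read 8.87, 9.36 and 8.69 at week 0 and 6.75, 6.42 and 6.599 at week 12. The change of Bub1 was -2.39 ± 0.41 (adjusted p = 0.0214, lost in 5 of the 12 fits). Mcm5, a part of the replication helicase, read 9.91, 9.23 and 9.47 at week 0 and 7.94, 7.30 and 7.65 at week 12. The change of Mcm5 was -1.90 ± 0.31 (adjusted p = 0.0163, lost in 4). Unlike the shaft genes, Bub1 and Mcm5 fell by like amounts in all 3 mice. Over the 33 genes the mice were unequal, with medians of -1.34, -0.90 and -0.56 in mice 1, 2 and 3. Mcm2 and Bub1b changed by -1.40 ± 0.25 and -1.39 ± 0.28 (adjusted p = 0.0227 and 0.0396, 0.0602 and 0.122 with the block, lost in 5 and 10).

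Some genes of the resting stem cells rose. Of 17 bulge genes 3 were called higher (0.362% over all probe sets and 1.05% of genes with 1 probe set each) and 0 lower, with a median of 0.39. The mice were unequal, with medians of -0.53, 1.18 and 0.52 in mice 1, 2 and 3, and 5 of the 17 rose in all 3 mice. Besides Fgf18, Krt15, the keratin of bulge and basal cells, read 10.73, 10.53 and 10.15 at week 0 and 11.86, 13.22 and 13.41 at week 12. The change of Krt15 was 2.36 ± 0.42 (adjusted p = 0.0227, 0.0657 with the mouse as a block, lost in 5 of the 12 fits). Mouse 1 rose least. Krt24 read 5.13, 6.15 and 4.42 at week 0 and 10.83, 8.48 and 8.28 at week 12. The change of Krt24 was 3.96 ± 0.74 (adjusted p = 0.0279, 0.0657 with the block, lost in 4), and here mouse 1 rose most. Cd34 and Lgr5, other markers of the bulge, did not pass (0.98 ± 0.48 and 0.09 ± 0.54, adjusted p = 0.451 and 0.97). Fgf18 was also the 1 gene called among 26 FGF, BMP and other cycle signals. Of 16 pigment genes 0 were called, with 14 below 0 and a median of -1.42 that was -0.28 in mouse 2 and -2.27 in mouse 3. The enzyme Tyrp1 read 9.89, 9.57 and 9.89 at week 0 and 9.18, 8.47 and 6.26 at week 12 (adjusted p = 0.28), and the times were apart, with the week 12 value of mouse 3 far below the others.

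In the surface epidermis, a few genes that mark stressed and thickened skin fell. Of 21 activation genes 2 were called lower (0.875% over all probe sets), with 18 of 21 below 0, a median change of -2.17 and with week 12 below week 0 without overlap in 15 of 21 (7.91% over all). Sprr2h, a precursor of the cornified envelope, read 10.67, 10.67 and 11.79 at week 0 and 8.97, 6.10 and 7.17 at week 12. The change of Sprr2h was -3.63 ± 0.59 (adjusted p = 0.0163, lost in 3 of the 12 fits). Stfa3, a stefin that inhibits cathepsins, read 12.52, 11.46 and 12.41 at week 0 and 9.44, 7.71 and 9.67 at week 12. The change of Stfa3 was -3.19 ± 0.46 (adjusted p = 0.0102, lost in 1). Both had no overlap, and mouse 2 fell to the lowest value in each. The stress keratins Krt6a and Krt16 had changes of -1.48 ± 0.34 and -1.83 ± 0.57 that did not pass (adjusted p = 0.0624 and 0.169). Of 37 interfollicular keratins and barrier genes 3 were called lower, and the median was -0.08. Lce3a and Lce3f, late envelope proteins made in wounded and inflamed epidermis, changed by -2.35 ± 0.30 and -2.94 ± 0.62 (adjusted p = 0.00604 and 0.0456), and Casp14, which processes filaggrin, by -1.28 ± 0.28 (adjusted p = 0.0498). Lce3f and Casp14 had adjusted p-values of 0.115 and 0.0918 with the block and lost the call in 8 and 11 of the 12 fits. Lce3a read 6.14, 5.94 and 6.49 at week 0 and 3.84, 3.63 and 4.06 at week 12 and fell by like amounts in the 3 mice. Krt10, the keratin of the suprabasal layers, read 12.70, 13.17 and 12.53 at week 0 and 13.16, 12.61 and 12.82 at week 12 (adjusted p = 0.962).

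Of 13 kallikreins and their inhibitors, which control the shedding of the outer layer, 3 were called lower. Klk13 read 10.65, 9.86 and 11.04 at week 0 and 7.13, 6.65 and 6.74 at week 12. The change of Klk13 was -3.67 ± 0.36 (adjusted p = 0.00128). Klk6 read 10.36, 10.91 and 11.80 at week 0 and 6.97, 6.50 and 8.46 at week 12 (change -3.72 ± 0.72, adjusted p = 0.0326, 0.101 without the 2 arrays, lost in 6 of the 12 fits). Neither overlapped between the times. Spink12 read 6.59, 10.32 and 9.60 at week 0 and 4.89, 3.34 and 3.39 at week 12. The change of Spink12 was -4.97 ± 0.82 (adjusted p = 0.0176, 0.068 with the block, lost in 4), with mouse 1 far below the others at week 0. The 3 short signatures with which the study scores alopecia areata were called lower in 4 of 4 genes for interferon (median -5.22), 3 of 4 for cytotoxic T cells (median -3.20, with Prf1 not called) and 2 of 5 for hair keratins (median -4.57). Desmosomes (12 genes), gasdermins (5) and sebaceous lipid synthesis (21) had 0 called, with medians of -0.02, -1.09 and 0.20.

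Adipocyte genes had the highest median change of the 51 lists. All 19 adipocyte genes had a change above 0, with a median of 1.27 against 0.32 in the vehicle mice. Of all 45037 probe sets, 22393 had a change below 0. Of the 19 genes 2 were called higher, against 0.362% of all probe sets and 1.05% of genes with 1 probe set each. Cidec, which fuses lipid droplets, read 7.10, 6.99 and 5.89 at week 0 and 9.31, 9.25 and 9.70 at week 12. The change of Cidec was 2.76 ± 0.46 (adjusted p = 0.0176, 0.0799 with the mouse as a block, lost in 3 of the 12 fits), and the 3 week 12 values lay close together. Pnpla2, the lipase that starts the release of fatty acids, changed by 1.47 ± 0.29 (adjusted p = 0.0364, 0.0783 with the block, lost in 9). The hormone genes Adipoq and Lep had changes of 2.44 ± 0.60 and 2.53 ± 0.57 that did not pass (adjusted p = 0.0794 and 0.0591). Fabp4 read 12.20, 13.05 and 12.12 at week 0 and 13.26, 12.93 and 12.95 at week 12. Whether the biopsies held different amounts of fat was not tested. The summed linear level of the 19 genes ran from 18910 to 32220 at week 0 and from 38980 to 52400 at week 12. Of 20 endothelial genes Cldn5, of the tight junctions of vessels, was called higher (2.34 ± 0.47, adjusted p = 0.037, 0.128 with the block, lost in 8). Of 16 genes of the basement membrane Itgb4 and Col17a1, which anchor basal keratinocytes, were called higher (1.44 ± 0.22 and 1.36 ± 0.23, adjusted p = 0.0119 and 0.0176, 0.063 and 0.0825 with the block, lost in 3 and 4).

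In the remaining lists few genes were called. Of 22 fibroblast and collagen genes, Col12a1 was called lower (-1.52 ± 0.29, adjusted p = 0.029, 0.0751 with the block, lost in 5 of the 12 fits). Of 5 erythrocyte genes Slc4a1, the anion exchanger, was called lower and read 6.16, 7.04 and 7.75 at week 0 and 2.93, 3.29 and 2.89 at week 12. The change of Slc4a1 was -3.95 ± 0.72 (adjusted p = 0.0262, lost in 5), while Hba-a1 stayed dim. Of 16 clock genes Nr1d1 was called higher (1.40 ± 0.25, adjusted p = 0.0223, 0.0961 with the block, lost in 4), and the hour of biopsy is not given in the sources used here. Matrix proteases (16), nerve and Schwann cell genes (9), immediate early genes (16), glycolysis (13) and ribosomal proteins (13) had 0 called. Of 22 muscle genes 0 were called. The summed linear level of the list ran from 54920 to 75410 at week 0 and from 31550 to 105700 at week 12. Myh4, a fast myosin, read 12.65, 12.66 and 12.31 at week 0 and 13.07, 9.25 and 5.94 at week 12. All 22 genes were lowest in mouse 3 at week 12, the mouse with the largest falls of interferon and shaft genes. The part of this in those falls was not tested.

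In the 17 lists with no gene called, the 2 members with the strongest evidence in each are given as values. Socs5, a brake on cytokine signalling, had a change of -1.52 ± 0.33 (adjusted p = 0.053), and Pias1, a further brake, 0.57 ± 0.22 (0.293). The protease Ctss, which trims the class II invariant chain, and Erap1, which trims class I peptides, had -1.13 ± 0.28 (0.0868) and -1.33 ± 0.31 (0.0683), and H2-T24 and H2-Oa had -1.56 ± 0.85 (0.516) and 0.71 ± 0.36 (0.478). These changes did not pass the test, and for Socs5, Ctss and Erap1 week 12 lay below week 0 without overlap. The receptor chains Il2ra and Il21r had -1.07 ± 0.37 (0.227) and -0.63 ± 0.31 (0.465), the dendritic cell integrin Itgax -1.43 ± 0.34 (0.0679), and the B cell gene Ms4a1 -2.01 ± 0.63 (0.175). Jchain, which joins secreted antibody units, had a change of -3.45 ± 0.78 (0.0591) at 11.72, 10.57 and 10.05 at week 0 and 9.08, 6.40 and 6.52 at week 12, opposite in sign to Ighg3. The mast cell proteases Tpsb2 and Mcpt4 had 1.54 ± 0.39 (0.092) and 1.79 ± 0.48 (0.108), with all week 12 values above all week 0 values.

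In skin structures, the pigment cell genes Ednrb and Oca2 had -1.56 ± 0.35 (adjusted p = 0.0572) and -1.996 ± 0.54 (0.111). The desmosomal Dsc2 and Pkp3 had -1.03 ± 0.36 (0.239) and 0.62 ± 0.23 (0.277), and the gasdermins Gsdma and Gsdmc2 -1.09 ± 0.25 (0.0612) and -2.57 ± 0.68 (0.107). Scd3, a fatty acid desaturase of sebaceous glands, read 8.23, 6.30 and 6.999 at week 0 and 8.96, 10.49 and 10.49 at week 12. The change of Scd3 was 2.80 ± 0.64 (adjusted p = 0.0625), and Mogat1, a lipid acyltransferase, had 1.43 ± 0.36 (0.089). Mmp13, a collagenase, read 5.47, 6.20 and 7.23 at week 0 and 2.46, 1.91 and 4.06 at week 12. The change of Mmp13 was -3.49 ± 0.77 (adjusted p = 0.0558), and Adamts4 had -1.83 ± 0.44 (0.0769). In Scd3 and Mmp13 the times did not overlap, although neither passed. The myosin Myh1 had 1.14 ± 0.63 (0.526), and the myelin genes Pmp22 and Mbp 0.77 ± 0.32 (0.347) and 0.60 ± 0.27 (0.392). For the immediate early genes Nr4a1 and Dusp1 the changes were 1.29 ± 0.62 (0.441) and 0.40 ± 0.22 (0.507). The glycolytic enzymes Pgam1 and Hk2 had -0.59 ± 0.20 (0.207) and -0.80 ± 0.37 (0.416), and the ribosomal genes Rps6 and Rpl11 0.44 ± 0.20 (0.401) and 0.59 ± 0.33 (0.532).

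**Figure D4:**
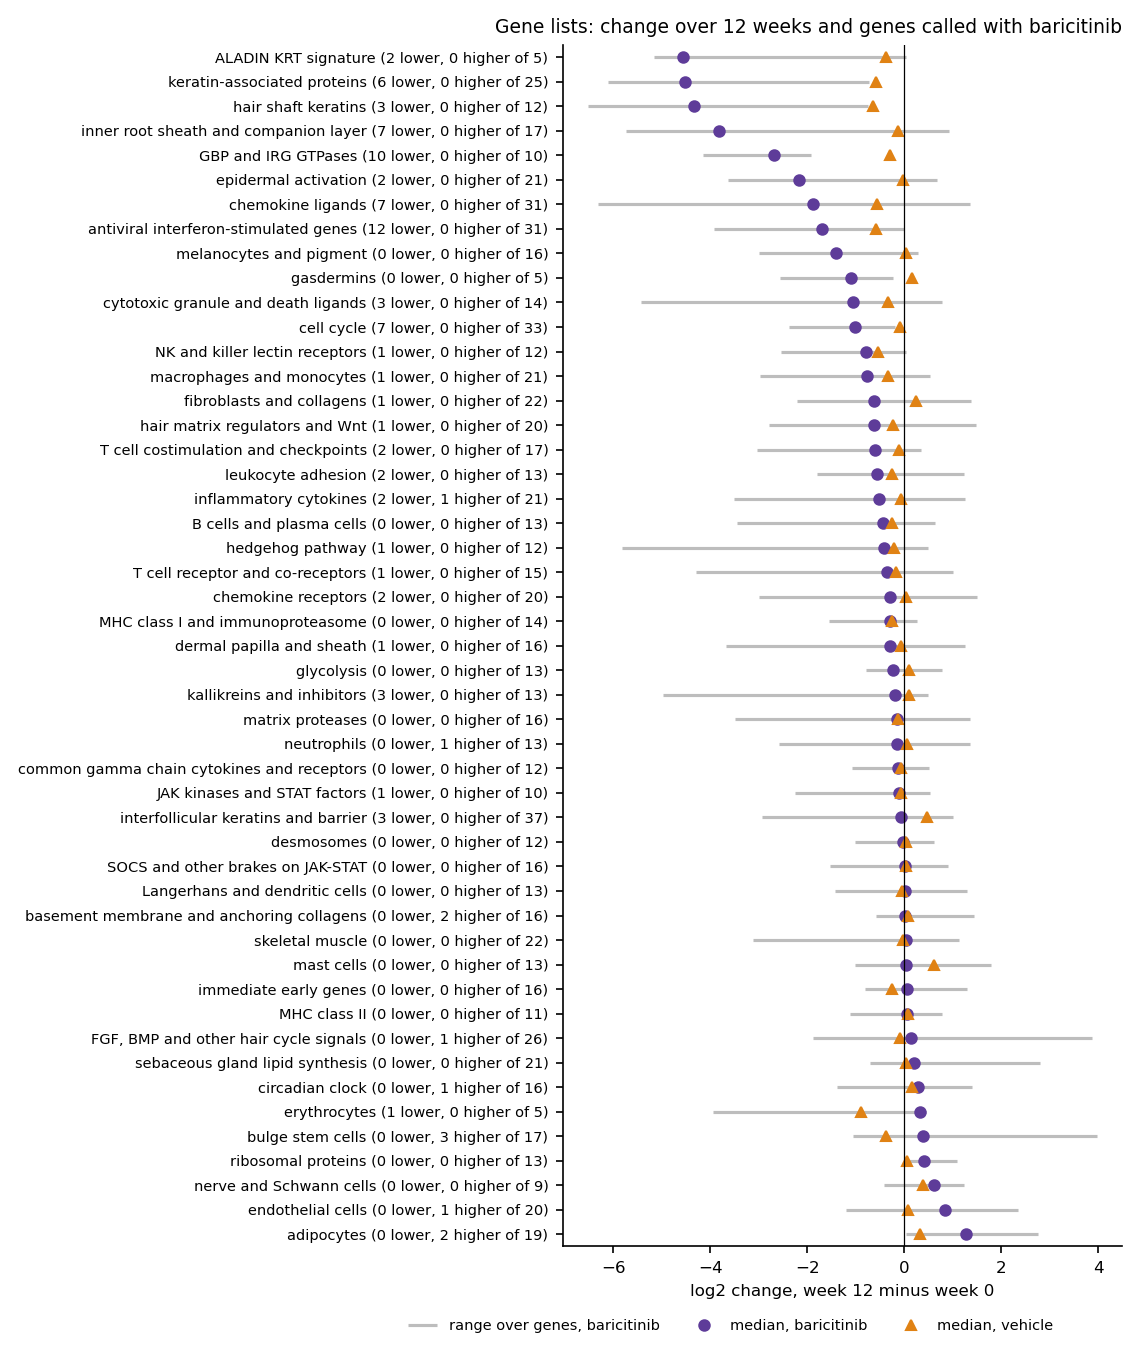
Gene lists of at least 5 measured genes ordered by their median log2 change with baricitinib (circles), with the range over the genes of a list (grey lines), the median in the vehicle mice (triangles) and the numbers called with baricitinib beside each name. Keratin-associated proteins (median -4.52) and adipocytes (median 1.27) stand near the ends of the order, while the vehicle medians stay between -0.90 and 0.61.

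Time and treatment are joined in this comparison, and the vehicle mice passed through the same 12 weeks. In them the probe sets called lower had a median change of -0.29, with 295 of 394 below 0, and those called higher had a median of 0.14, with 108 of 163 above 0. The difference of the 2 changes, (baricitinib week 12 minus week 0) minus (vehicle week 12 minus week 0), was tested itself in limma over all 45037 probe sets. It gave 0 calls (0%), with a smallest adjusted p of 0.0758, and 1466 were lower and 1359 higher at an unadjusted p under 0.05. Since the 394 and 163 were chosen by a change that this difference contains, their own differences are no evidence of it. With the mouse as a block 0 were called, too, with 1412 and 1383 at an unadjusted p under 0.05, and without the 2 arrays of lowest correlation 19 were called lower and 16 higher. Other fits on all 12 arrays did call some, 8 lower and 4 higher with 1 probe set per gene, 12 and 5 with the index of 3' over 5' signal held in the fit, and 3345 and 3245 with array weights, whose estimation did not converge.

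The nearest to that threshold among the named genes were Krt73 (difference -5.36 ± 0.74, adjusted p = 0.0758), Lce3a (-3.59 ± 0.43, 0.0758), Klk13 (-3.95 ± 0.51, 0.0758), Cck (2.62 ± 0.35, 0.0758) and Il31ra (2.83 ± 0.39, 0.0758). In Klk13 the baricitinib mice changed by -3.52, -3.20 and -4.30 and the vehicle mice by 0.79, 0.62 and -0.58, with no overlap. The chemokines had lower values at week 12 in the vehicle mice too, with changes of Cxcl11 of -2.11, -2.28 and -1.04 in the 3 mice, which left a difference of -4.50 ± 0.66 (adjusted p = 0.081). Igtp changed by -2.94, -1.73 and -3.83 with baricitinib and 0.10, -0.36 and 0.14 with vehicle (difference -2.79 ± 0.51, adjusted p = 0.158). The GBP and IRG GTPases had a median of -0.30 in the vehicle mice. In 10 of 10 all baricitinib changes lay below all vehicle changes, against 6.14% of all probe sets. The same held in 17 of 25 keratin-associated proteins, 15 of 33 cell cycle genes, 10 of 31 chemokine ligands, 1 of 21 macrophage genes and 0 of the 14 class I and 11 class II MHC genes. All 10 GTPases had been called on the baricitinib change, which favours this pattern, and the differences of 0 of the 10 passed.

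**Figure D5:**
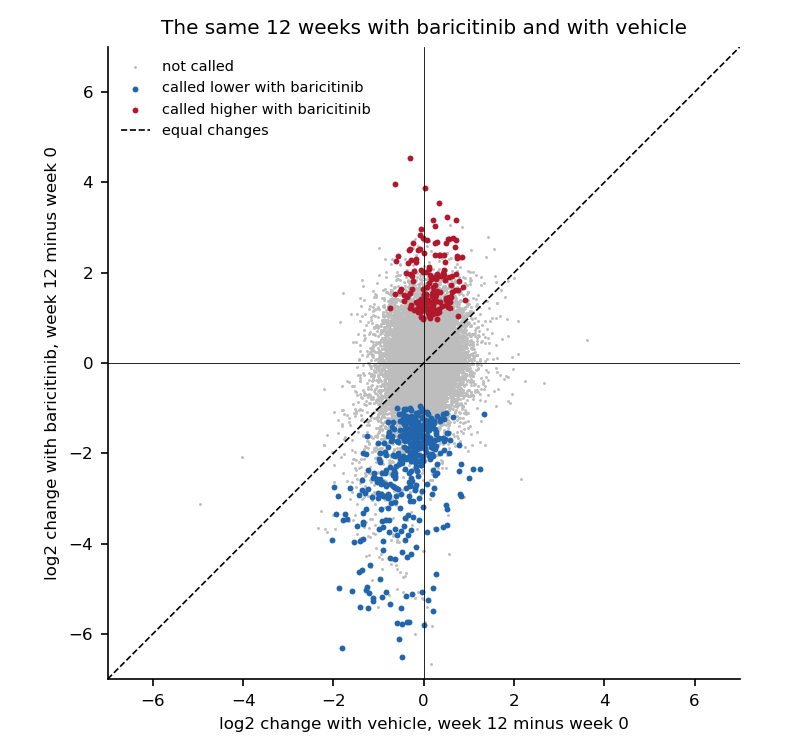
Log2 change over 12 weeks with vehicle (x axis) and with baricitinib (y axis) for each of 45037 probe sets, with a dashed line where both are equal. All 394 probe sets called lower with baricitinib (blue) lie below the line and all 163 called higher (red) lie above it, which their choice by the baricitinib change favours.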

How the data were processed

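RNA of the skin biopsies was amplified and hybridized to Affymetrix arrays, and the authors deposited log2 values normalized by RMA over the arrays of the topical experiment together, with a version not given in the sources used here. Scanner files were not analysed here. The methods say that arrays failing quality control were removed before the study's own analysis, without naming them, and all 12 arrays were used here. The small number of arrays, their unequal quality and dim signals limit the precision. Probe sets were named from GEO's platform annotation, with symbols compared with RefSeq (none changed): 34945 of 45037 had 1 symbol, 932 several and 9160 none, and 64 control probe sets were left out.

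From the deposited log2 values, limma 3.58.1 in R 4.3.3 (lmFit and eBayes) fitted 1 mean per group over 12 arrays, without the mouse. The test compared week 12 with week 0 of baricitinib, and the same fit gave the difference from the vehicle change. A call is a two-sided adjusted p under 0.05, Benjamini-Hochberg over all probe sets. SE values are limma's. The numbers in the labels identify the mouse, so week 0 and week 12 arrays of a number come from 1 animal. Deviations from the group means correlated within pairs at -0.36, -0.51 and 0.47 for baricitinib and 0.44, -0.13 and 0.49 for vehicle.

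The 51 gene lists and the comparison itself were chosen with earlier results of these data known. For a list member with several probe sets, the brightest on average stood for the gene, and others can differ. The 15 named genes in each direction have 1 symbol, are called with and without the mouse as a block, moved the same way in all 3 mice, and have a higher group mean above the median. Each of these is given by its brightest probe set among those that met this rule, so that its other probe sets can differ. Up to 4 called members of each list were named besides, or where none was called the 2 with the largest t in size. Other genes given as values, most of them not called, were chosen after their values were seen. Scripts were tested on simulated data. Alternatives were the mouse as a fixed or random block, fewer arrays, other normalizations, priors, filters and weights, and an index of RNA integrity.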

Additional observations from a re-analysis of the deposited data

Results flagged for a closer look

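In 4 of the genes named above from the lists, all 3 baricitinib mice moved one way over the 12 weeks and all 3 vehicle mice the other way. The share of all probe sets with this pattern was not counted. The 4 genes had been called on the baricitinib change, which favours the pattern. For Lce3a the difference of the changes (baricitinib minus vehicle, log2) was -3.586 (limma, unadjusted p = 3.132e-06, adjusted p = 0.0758), with baricitinib changes of -2.30, -2.30 and -2.43 and vehicle changes of 1.41, 1.70 and 0.60. For Sprr2h it was -4.063 (unadjusted p = 0.0004027, adjusted p = 0.207), with -1.70, -4.57 and -4.62 against 0.55, 0.48 and 0.28. For Casp14 it was -1.641 (unadjusted p = 0.001305, adjusted p = 0.288), with -1.56, -0.83 and -1.46 against 0.47, 0.42 and 0.19. For Krt15 it was 2.934 (unadjusted p = 0.0003522, adjusted p = 0.206), with 1.13, 2.69 and 3.26 against -0.86, -0.19 and -0.67. None of the 4 differences passed the threshold after adjustment over all 45037 probe sets. The 3 genes of the cornified envelope and its processing were lower with baricitinib and had positive changes in the vehicle mice, and Krt15 went the other way. Why they part was not tested.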

How the results depend on the processing

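With all 12 arrays, 394 probe sets were called lower and 163 higher. A fixed replicate block for the mouse gave 130 and 28, and with only the baricitinib arrays 88 and 9, or 1 and 0 when these were paired by the block. Array weights gave 5279 and 5998, but their estimation did not converge. The index of 3' over 5' signal gave 985 and 778, and leaving out the 2 arrays of lowest correlation, chosen after seeing the data, 512 and 348. Leaving out 1 array gave 60 to 749 lower and 10 to 615 higher. The random block, the priors, the filter on dim probe sets, cyclic loess, median centring and 1 probe set per gene stayed within 1.5 times the counts above. The cause of these moves was not tested.

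The difference from the vehicle change had 0 calls in each direction. It had 3345 lower and 3245 higher with array weights, 12 and 5 with the index, 8 and 4 with 1 probe set per gene, 0 and 1 with cyclic loess, 19 and 16 without the 2 arrays, and 0 to 32 lower and 0 to 23 higher when 1 array was left out. Of 90 named genes, none changed direction. With the replicate block 35 of them lost the call, as given beside each gene, and no other call among them changed. With only the baricitinib arrays 51 lost it, or 85 when these were paired, without the 2 arrays 20, with median centring 4 and with cyclic loess 3. At week 12, 163 of the 394 were under the median of all values, where low signal over background compresses folds.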

Other observations

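Genes that no list held were chosen here after their values were seen. Clspn, which relays replication stress, read 8.87, 8.19 and 8.77 at week 0 and 5.01, 6.32 and 6.06 at week 12 (change -2.82 ± 0.36, limma adjusted p = 0.00592, 0.0343 with the mouse as a block). Chek1, the checkpoint kinase it activates, changed by -2.12 ± 0.33 (0.0132), Mcm10, a replication initiation factor, by -2.44 ± 0.33 (0.00717), Cdca5, which holds sister chromatids together, by -2.69 ± 0.26 (0.00128), and the recombination proteins Rad54l and Rad51ap1 by -2.26 ± 0.30 (0.00717) and -2.17 ± 0.31 (0.0102). All 6 were also called with the mouse as a block. The gap junction genes Gjb2 and Gjb6, which couple keratinocytes, changed by -2.89 ± 0.29 and -2.70 ± 0.36 (0.00159 and 0.00723).

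Further immune genes that fell were Ubd, a ubiquitin-like protein induced by interferon-gamma (-3.92 ± 0.69, 0.0227), Batf2, a transcription factor of the same response (-2.57 ± 0.40, 0.0142), Clec7a, the receptor dectin-1 (-3.90 ± 0.46, 0.00312), and Ikzf3, the lymphocyte factor Aiolos (-2.43 ± 0.31, 0.00604). Ubd read 9.21, 11.33 and 11.30 at week 0 and 6.32, 7.02 and 6.74 at week 12.

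Among genes that rose outside the naming rule were a hormone subunit and a receptor, chosen after their values were seen. Gpha2, a subunit of thyrostimulin, rose from a mean of 5.21 to 8.75 (change 3.54 ± 0.66, limma adjusted p = 0.0276, 0.0779 with the block), and Tshr, the thyrotropin receptor, from 2.93 to 5.95 (change 3.02 ± 0.50, adjusted p = 0.0176, 0.0512 with the block). A second probe set of Tshr had a change of 2.71 that did not pass (adjusted p = 0.0657). The largest rise of all probe sets was that of Ifitm6, a member of the interferon-induced transmembrane family, at 4.54 ± 0.83 (adjusted p = 0.0262, 0.0651 with the block), opposite in sign to the antiviral list.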
